A study of Mus musculus with 11 samples.

Results

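The transcripts of 10 Polycomb subunits were followed in bone marrow cells that lack lineage markers and carry cKit and Sca-1 (LSK cells), a fraction in which blood stem cells and early progenitors are enriched. The members were chosen by symbol, as 10 of the 55291 gene rows of the count table: Ezh1, Ezh2, Eed and Suz12 of Polycomb repressive complex 2 (PRC2), and Cbx2, Cbx7, Pcgf2, Bmi1, Ring1 and Rnf2 of Polycomb repressive complex 1 (PRC1). All 10 passed the filter on low counts. Per the labels, the libraries came from individual C57BL/6 mice: wild type (WT, n = 4), Phf6 knockout (KO, n = 3) and Phf6R274X Tg (Tg, n = 4). R274X denotes a stop codon in Phf6, a chromatin gene mutated in human leukaemias. The labels describe no agent or further allele for any group. The deleted part of Phf6, the promoter of the transgene, the number of founder lines, and the age and sex of the mice were not stated in the sources used here.

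Polycomb proteins keep developmental genes silent. PRC2 adds methyl groups to lysine 27 of histone H3 through EZH1 or EZH2, which need EED and SUZ12 to act. Canonical PRC1 binds that mark through a CBX protein, holds PCGF2 (also called MEL18) or BMI1, and carries a ubiquitin ligase, RING1 or RNF2 (RING1B), that modifies histone H2A. The other PCGF proteins belong to variant PRC1. In blood stem cells BMI1 is known for keeping self-renewal, and EZH2 is known as a gene lost by mutation in myeloid disease.

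Library totals ran from 20990446 to 45632018 counts, and 17183 genes were tested. Phf6 itself ran from 109.8 to 141.8 CPM (counts scaled to library depth, with TMM factors between libraries) in WT, from 15.3 to 23.9 in KO and from 182.5 to 277.5 in Tg, without overlap. The 5 LSK markers examined (Kit, Ly6a, Cd34, Flt3 and Procr) were all detected, with summed levels of 1631 to 2301 CPM in WT, 1811 to 2042 in KO and 1550 to 2100 in Tg. Against WT 0 of the 5 were called in edgeR, where 0.0233% of all genes tested were called in KO and 4.92% in Tg. Kit (log2 fold change -0.26) and Procr (-0.74) in KO and Flt3 (-0.45) in Tg had an unadjusted p under 0.05. Such a p was found for 7.08% of all genes in KO and 22.1% in Tg. In Tg against KO Procr was called higher (1.02, SE 0.255, edgeR adjusted p = 0.0413), where 5.69% of all genes were called. The 4 granulocyte-monocyte progenitor markers (Elane, Mpo, Prtn3 and Ctsg) all rose in Tg against WT, and their summed level was 1351 to 3443 CPM in WT, 3690 to 4799 in KO and 4720 to 23280 in Tg. Of 3 B cell markers 0 were called in edgeR (3 at an unadjusted p under 0.05), with sums of 9.38 to 147.2, 27.8 to 75.9 and 2.42 to 24.2 CPM and with Ms4a1 at 0 in 3 Tg libraries. The other sums did not exceed 589 CPM: 1 of 3 plasma cell markers (Jchain), 1 of 3 T and NK cell markers (Klrb1c) and 2 of 3 erythroid markers (Hbb-bt and Alas2) fell in Tg, and 0 of 4 macrophage and 0 of 4 neutrophil markers were called (3 and 1 at an unadjusted p under 0.05). Scaled to library totals, Xist lay between 50 and 53.8 CPM in WT, between 32.7 and 40.3 in KO and at 0.297 or below in Tg. Each contrast with Tg is therefore also a contrast of Xist state, and genotype and Xist state cannot be told apart for any gene. On the same scale the Y-linked genes Ddx3y, Uty, Kdm5d and Eif2s3y summed to 49.9 to 367 CPM in the 4 Tg libraries. They summed to 0.0642 CPM in WT replicate 3 and 0.0329 CPM in KO replicate 3. A difference in sex between the groups was not tested and could not be told apart from genotype. Reads of Xist and of Y-linked genes, each above 1 CPM, stood together in 3 WT and 2 KO libraries and in 0 Tg libraries. These 5 are called the mixed libraries. Their Y-linked sums were 133, 141 and 21 CPM in WT replicates 1, 2 and 4 and 114 CPM in KO replicate 1. KO replicate 2 passed the limit only narrowly, at 1.74 CPM, and fits without the mixed libraries leave it out too. Whether each of these 5 holds RNA of 1 mouse only, as labelled, was not tested. In bulk RNA, fewer cells of a type and less RNA per cell cannot be told apart.

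The promoters of Ezh2, the member with the lowest p, of a PRC2 partner that shares a motif with it, and of the member that rose are shown first, as 300 bases each from 250 before to 50 after the RefSeq start site (GRCm38.p6, 5′ to 3′ on the strand of the gene). RefSeq entries matched 9 of the 10 members, all but Cbx2. Capitals mark letters of 2 searched motifs: the E2F words TTTCCCGC, TTTGGCGC, TTTCGCGC and TTTGCCGC, bound by factors that drive cell cycle genes, and the cell cycle homology words TTTGAA and TTCGAA, each on both strands. The windows are chr6:47594981-47595280 (minus strand) for Ezh2, chr11:79992856-79993155 (plus strand) for Suz12 and chr11:97699599-97699898 (minus strand) for Pcgf2.
Ezh2: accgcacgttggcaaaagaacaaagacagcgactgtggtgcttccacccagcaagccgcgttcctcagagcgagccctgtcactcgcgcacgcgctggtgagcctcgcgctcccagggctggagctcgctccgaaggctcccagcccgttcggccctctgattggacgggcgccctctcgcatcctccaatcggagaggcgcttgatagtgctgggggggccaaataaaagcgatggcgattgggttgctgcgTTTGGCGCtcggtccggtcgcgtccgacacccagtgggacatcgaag
Suz12: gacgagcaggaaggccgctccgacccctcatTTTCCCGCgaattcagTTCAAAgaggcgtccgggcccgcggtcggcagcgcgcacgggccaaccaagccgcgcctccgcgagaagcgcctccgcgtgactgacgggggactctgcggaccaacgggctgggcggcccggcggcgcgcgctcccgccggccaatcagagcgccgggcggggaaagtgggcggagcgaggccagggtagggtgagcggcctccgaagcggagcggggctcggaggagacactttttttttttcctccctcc
Pcgf2: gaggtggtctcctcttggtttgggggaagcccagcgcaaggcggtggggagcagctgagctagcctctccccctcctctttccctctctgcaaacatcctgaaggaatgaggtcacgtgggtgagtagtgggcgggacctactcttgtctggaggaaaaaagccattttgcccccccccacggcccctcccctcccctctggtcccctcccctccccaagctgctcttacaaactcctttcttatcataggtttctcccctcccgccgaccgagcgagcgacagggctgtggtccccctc
Ezh2 held the E2F word TTTGGCGC at base 254 of its window, and Suz12 held TTTCCCGC at base 32 and a cell cycle homology word at base 48, read on the minus strand, with no overlap between them. The Pcgf2 window held neither. An E2F word stood in the windows of 2 of the 9 matched members and in 2.26% of all 32851 RefSeq windows of this length. A cell cycle homology word stood in 3 of the 9 (Eed, Suz12 and Cbx7) and in 19.2% of all windows, and the NRF1 motif in 0 of the 9 and in 0.971%. The Pcgf2 window held 10 CpG dinucleotides, the fewest of the 9, where Ezh2 held 31 and Suz12 41 and the median of all windows was 7. Each E2F word holds a CpG, so its share over all windows does not come from windows equally rich in CpG. A match of letters is a description and not a measured site.

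Levels differed over a wide range among the members in WT. Per kilobase of merged exons, Suz12 was highest at 45.0 ± 2.25 CPM per kilobase (SD, n = 4), followed by Ezh2 at 30.5 ± 3.30, Rnf2 at 20.6 ± 1.66, Eed at 17.8 ± 1.33 and Bmi1 at 14.4 ± 0.885. Lower levels per kilobase were found for Cbx2 (8.26 ± 1.099), Ezh1 (6.81 ± 0.609), Ring1 (5.47 ± 0.148), Cbx7 (2.27 ± 0.737) and Pcgf2 (2.01 ± 0.183). The WT ranges overlapped between the neighbours Rnf2 and Eed, Cbx2 and Ezh1, and Cbx7 and Pcgf2, and did not overlap for the other 6 neighbouring pairs. In Tg, Cbx2 stood behind Ring1 and Ezh1 in this order, with 5.34 CPM per kilobase against 6.41 and 6.25, but neither Cbx2 and Ezh1 nor Ezh1 and Ring1 were separated beyond their ranges. Scaled to the longest single transcript, the first place went to Ezh2 and the second to Suz12 in all 3 groups, where the merged exons of Ezh2 span 6678 bases and its longest transcript 2787. With that length Eed also came before Rnf2 (33.0 against 26.6 CPM per kilobase in WT), Pcgf2 before Cbx7 (2.85 against 2.43) and Ezh1 before Cbx2 (12.04 against 9.23), so that Cbx2 stood behind Ezh1 in WT and KO too.

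**Figure D1:**
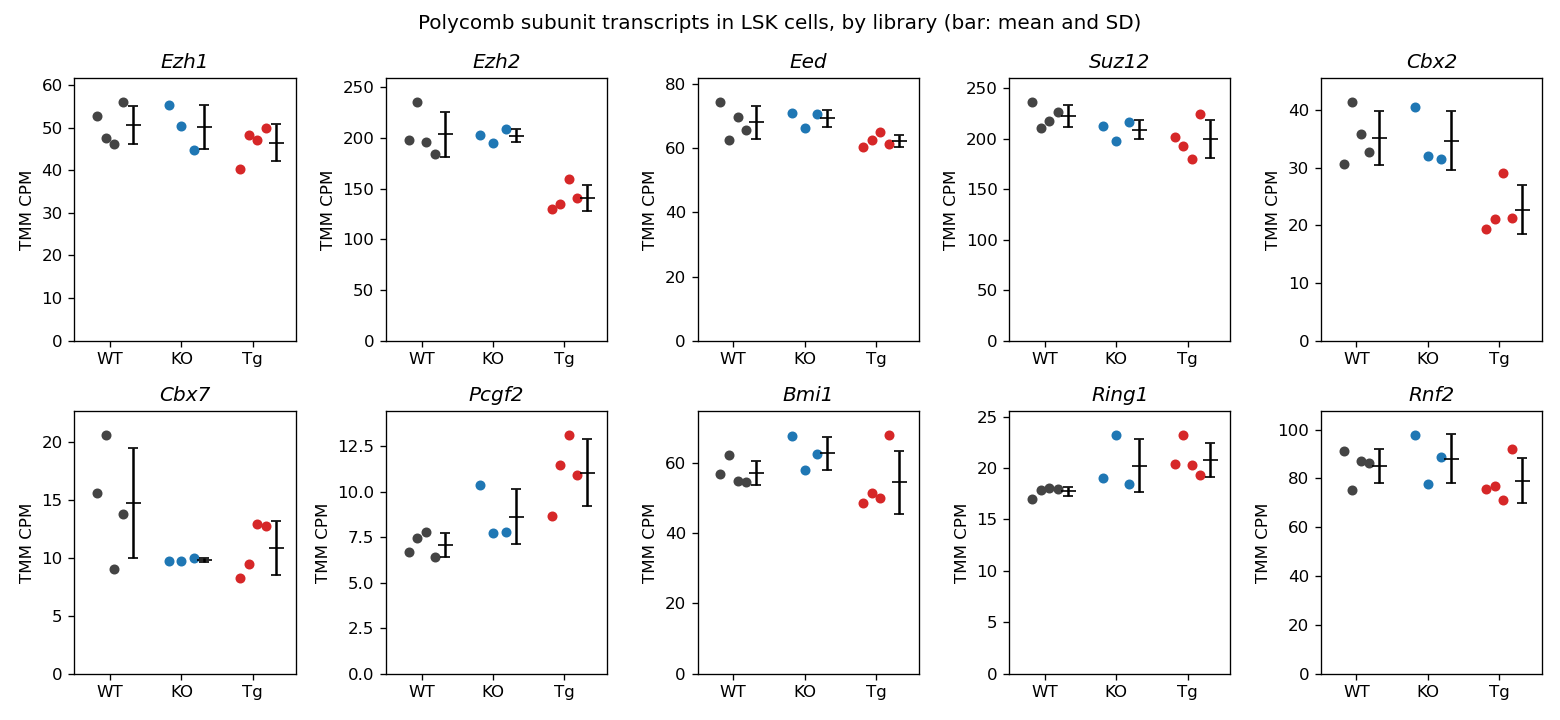
TMM-scaled CPM of each Polycomb subunit (vertical axes from 0) in every WT, KO and Tg library, with the group mean and SD beside the points. The 4 Tg libraries lie below every WT and KO library for Ezh2 and Cbx2 and above every WT library for Pcgf2.

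The first question was what loss of Phf6 changes among these subunits. In edgeR's quasi-likelihood test 0 of the 10 members were called in KO against WT (1 at an unadjusted p under 0.05; 0 by DESeq2 and 0 by limma-voom), where 0.0233% of all genes tested were called and 7.08% had an unadjusted p under 0.05. The median log2 fold change of the members was 0.01 and the median size without sign 0.07, against 0.15 for all genes. Ezh2 held 203.3, 195.1 and 208.5 CPM in KO and 198.2, 235.2, 196.1 and 184.4 in WT, so that the KO libraries lay inside the WT range. Its log2 fold change was -0.01, with a 95% interval of -0.22 to 0.20. Its partner Eed held 71.2, 66.4 and 70.6 CPM in KO, inside the WT range (log2 fold change 0.03, 95% interval -0.13 to 0.18). Suz12 held 212.2, 198.1 and 216.6 CPM in KO, with KO replicate 2 below the WT libraries (-0.09, -0.27 to 0.09). Ezh1 held 55.3, 50.5 and 44.8 CPM in KO and overlapped with WT (-0.01, -0.24 to 0.22).

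The member with the lowest p in KO was Cbx7 (chromosome 15, 79915807 to 79971119, minus strand), a chromodomain protein of PRC1 linked to stem cell self-renewal. It held 15.6, 20.6, 9.04 and 13.8 CPM in WT and 9.74, 9.72 and 9.98 in KO. WT replicate 3 was below every KO library and the other WT libraries were above them all. The log2 fold change was -0.59 (SE 0.25, edgeR adjusted p = 0.689). Without the mixed libraries it was 0.15, from 1 WT and 1 KO library. Ring1 was the single member whose groups did not overlap, at 18.4 to 23.2 CPM in KO and 17.0 to 18.1 in WT (log2 fold change 0.19, SE 0.11, adjusted p = 0.758), where 7.5% of all genes had groups without overlap.

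The other PRC1 members overlapped between KO and WT. Bmi1 held 67.6, 58.2 and 62.6 CPM in KO (log2 fold change 0.13, 95% interval -0.12 to 0.39), and Rnf2 held 97.7, 77.9 and 88.7 (0.05, -0.19 to 0.29). Cbx2 held 40.5, 32.1 and 31.5 CPM in KO (-0.02, -0.36 to 0.33). Pcgf2 held 10.4, 7.71 and 7.81 CPM in KO (0.29, -0.09 to 0.66), where KO replicate 1 stood furthest above the WT libraries.

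The second question was how LSK cells of the Tg mice differ from WT. Ezh2 and Cbx2 fell and Pcgf2 rose, 3 of the 10 members, where edgeR called 4.92% of all genes tested (2.54% higher and 2.39% lower) and 5.55% of the 10893 genes that averaged 5 CPM or more. An unadjusted p under 0.05 was found for 4 members, against 22.1% of all genes. WT and Tg did not overlap for 4 of the 10 members, against 9.85% of all genes. The other 7 members did not pass, and the median size of change without sign was 0.19 on the log2 scale for the members and 0.20 for all genes.

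Ezh2 (chromosome 6, 47530139 to 47595341, minus strand), the main methyltransferase of PRC2 in dividing cells, held 198.2, 235.2, 196.1 and 184.4 CPM in WT and 130.0, 134.6, 159.1 and 140.7 in Tg. Every Tg library was below every WT library, and WT replicate 2 was the highest of all. The mean went from 203.5 ± 22.0 CPM (SD, n = 4) to 141.1 ± 12.8 (n = 4). Ezh2 fell to 0.693 of its WT level, a log2 fold change of -0.53 (SE 0.09, 95% interval -0.72 to -0.33) with an adjusted p of 0.0127 in edgeR's quasi-likelihood test. The call was kept when any 1 of the 11 libraries was left out (adjusted p up to 0.0448, without Tg replicate 1). Without the 5 mixed libraries the log2 fold change was -0.47 and did not pass (adjusted p = 0.414), with 1 WT library left. Exons of Gm26625 on the other strand overlap 2.61% of its merged exons, and the strand setting of the counting was not stated in the sources used here.

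Its relative Ezh1 (chromosome 11, 101191115 to 101226463, minus strand), the methyltransferase that can stand in for EZH2 and is known for a larger part in resting cells, did not pass. It held 52.7, 47.6, 46.3 and 56.0 CPM in WT and 40.3, 48.4, 47.2 and 50.1 in Tg, with overlapping groups. The log2 fold change was -0.12, with a 95% interval of -0.34 to 0.09. Ezh1 made up 18.4 ± 2.58% of the Ezh1 and Ezh2 level per kilobase in WT (15.4 to 21.4%), 18.2 ± 1.81% in KO and 22.9 ± 1.70% in Tg (21.04 to 24.4%). The WT and Tg ranges of this share overlapped, through WT replicate 4 at 21.4% and Tg replicate 3 at 21.04%.

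The other core PRC2 subunits did not pass in Tg. Eed (chromosome 7, 89954654 to 89980983, minus strand), which reads methylated H3 and stimulates the enzyme, held 74.5, 62.7, 69.9 and 65.7 CPM in WT and 60.4, 62.5, 65.04 and 61.5 in Tg. The groups overlapped through WT replicate 2, and the log2 fold change was -0.13 (95% interval -0.27 to 0.02). Suz12 (chromosome 11, 79993106 to 80034123, plus strand), the scaffold of the complex, held 236.1, 210.6, 217.1 and 226.3 CPM in WT and 202.0, 192.5, 180.0 and 224.4 in Tg. Tg replicate 4 lay among the WT libraries, and the log2 fold change was -0.16 (-0.32 to 0.01). The lower bounds of both intervals were closer to 0 than the Ezh2 estimate of -0.53. Whether the change of Ezh2 differs from that of its partners was not tested.

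Among PRC1 genes, Cbx2 (chromosome 11, 119022962 to 119031270, plus strand), a chromodomain subunit that also compacts chromatin, held 30.6, 41.4, 35.9 and 32.7 CPM in WT and 19.4, 21.1, 29.1 and 21.3 in Tg. All Tg libraries were below all WT libraries, and Tg replicate 3 came closest to them. Cbx2 fell to 0.647 of its WT level, a log2 fold change of -0.63 (SE 0.15) with an adjusted p of 0.0347 in edgeR's quasi-likelihood test. The call was lost without any of 8 of the 11 libraries, and was kept only without KO replicate 1, KO replicate 3 or Tg replicate 3 (adjusted p up to 0.11, without Tg replicate 1). It was also lost with only the compared groups (adjusted p = 0.0592) and without the mixed libraries (-0.65, 0.463). The fold change lay between -0.77 and -0.54 over all settings.

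Pcgf2 (chromosome 11, 97688823 to 97700497, minus strand), the PCGF subunit closest in sequence and role to Bmi1, held 6.67, 7.44, 7.80 and 6.42 CPM in WT and 8.67, 11.5, 13.1 and 10.9 in Tg. Each Tg library was above each WT library, and KO replicate 1, at 10.4 CPM, was above Tg replicate 1. Pcgf2 rose 1.56-fold, a log2 fold change of 0.64 (SE 0.16) with an adjusted p of 0.0432 in edgeR's quasi-likelihood test. The call was lost without any of 9 of the 11 libraries, and was kept only without WT replicate 3 or KO replicate 1 (adjusted p up to 0.11, without Tg replicate 2). The call was kept with DESeq2, RLE factors and a filter of 2 CPM in 3 libraries. It was lost with limma-voom (adjusted p = 0.0658), upper quartile factors (0.0516), no filter on low counts (0.0604), only the compared groups (0.0759), the Y-linked level as a covariate (0.0741) and without the mixed libraries (0.66). The fold change stayed between 0.51 and 0.74 over all settings.

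**Figure D2:**
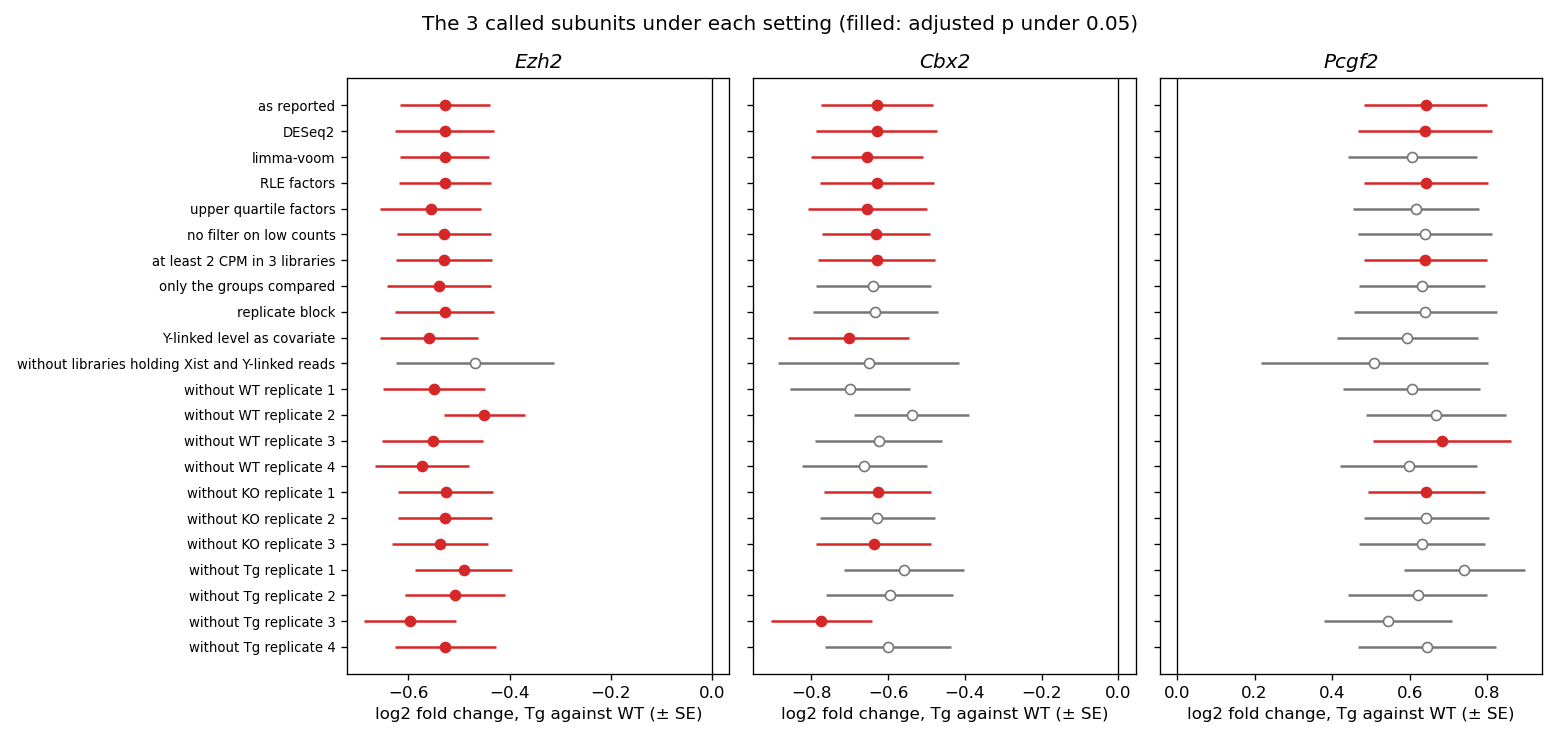
Log2 fold change of Ezh2, Cbx2 and Pcgf2 in Tg against WT (horizontal axes, bars ± SE) under each setting or with 1 library left out, with filled points where the adjusted p was under 0.05. Ezh2 lies between -0.60 and -0.45 and is open without the mixed libraries alone, while Cbx2 and Pcgf2 keep their side of 0 but are often open.

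The remaining PRC1 members did not pass in Tg. Ring1 (chromosome 17, 34020792 to 34024680, minus strand), one of the ubiquitin ligases, held 17.0, 17.9, 18.1 and 17.9 CPM in WT and 20.4, 23.2, 20.3 and 19.3 in Tg. The groups did not overlap, and the log2 fold change was 0.23 (SE 0.10, edgeR adjusted p = 0.205). Rnf2 (chromosome 1, 151458004 to 151500955, minus strand), the more abundant ligase, held 91.5, 75.4, 87.2 and 86.5 CPM in WT and 75.9, 77, 71.2 and 92.3 in Tg. Tg replicate 4 was above all WT libraries and Tg replicate 3 below them, and the log2 fold change was -0.11 (95% interval -0.33 to 0.11). Bmi1 (chromosome 2, 18677018 to 18686629, plus strand) held 56.9, 62.3, 54.9 and 54.8 CPM in WT and 48.6, 51.4, 50.02 and 68.0 in Tg, with a log2 fold change of -0.07 (-0.30 to 0.16). Tg replicate 4 stood above every WT library and the other Tg libraries below them all. Cbx7 held 8.22, 9.49, 12.9 and 12.7 CPM in Tg, overlapping with WT (log2 fold change -0.45, -0.94 to 0.05).

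**Figure D3:**
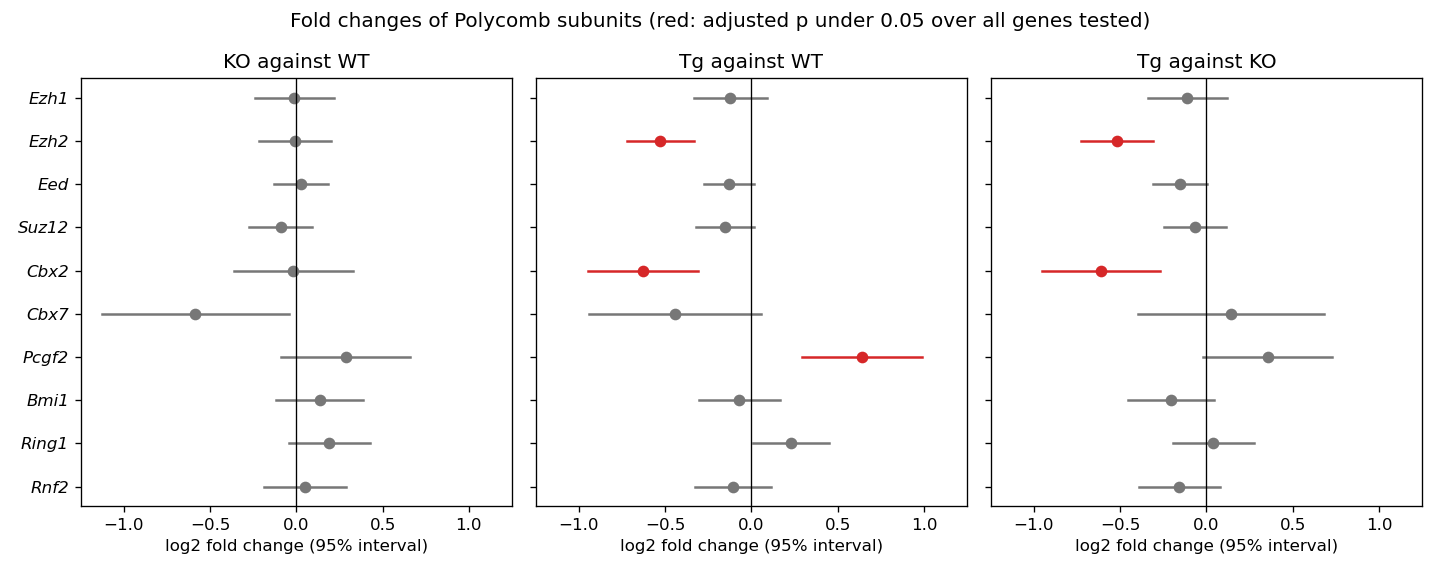
Log2 fold changes (points) with 95% intervals (bars) of the 10 subunits in the 3 contrasts of the edgeR fit, in red where the adjusted p over all genes tested was under 0.05. Ezh2 and Cbx2 are red and below 0 in both Tg contrasts, Pcgf2 is red in Tg against WT, and 0 members are red in KO against WT.

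Tg was also compared with KO directly, which tests the difference between the 2 genotypes' distances from the WT libraries and shares the Tg libraries with the comparison against WT. Ezh2 fell, with a log2 fold change of -0.52 (SE 0.09, edgeR adjusted p = 0.012) and 195.1 to 208.5 CPM in KO and 130.0 to 159.1 in Tg. That call was lost without KO replicate 3 (adjusted p = 0.0554) and in no other fit with 1 library left out, and without the mixed libraries the log2 fold change was -0.56 (0.279). Cbx2 fell too (-0.61, SE 0.16, adjusted p = 0.0449), from 31.5 to 40.5 CPM in KO to 19.4 to 29.1 in Tg. Its call was lost without any of 8 of the 11 libraries, kept only without WT replicate 1, WT replicate 2 or Tg replicate 3 (adjusted p up to 0.178, without KO replicate 1), and it was kept in 4 of 10 other settings. Without the mixed libraries its value was -0.47 (0.621). These were 2 of the 10 members, where 5.69% of all genes tested were called, 3.06% as lower. Pcgf2 stood at 0.36 (SE 0.17, adjusted p = 0.258), with overlapping groups, so a difference between Tg and KO was not shown for it. Eed had groups without overlap, 66.4 to 71.2 CPM in KO and 60.4 to 65.0 in Tg, and did not pass (log2 fold change -0.15, adjusted p = 0.236), where 20.8% of all genes had such groups.

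Paralogues of the same subunit family were set side by side per kilobase of merged exons, as a description. Of the 6 PCGF genes, Bmi1 held the largest mean share, 33.4 ± 2.32% in WT, 35.8 ± 1.096% in KO and 32.2 ± 3.51% in Tg. Pcgf5, of variant PRC1, came next with 28.3 ± 2.23%, 27.5 ± 0.707% and 29.8 ± 1.01%. This order turned with the longest single transcript as length, where Pcgf5 held 36.5%, 35.9% and 38.2% and Bmi1 24.4%, 26.4% and 23.3% in WT, KO and Tg. Pcgf2 held 4.17 to 5.24% in WT, 5.02 to 6.38% in KO and 6.18 to 8.73% in Tg, without overlap between WT and Tg. It remained a minor PCGF transcript in each library. Of Pcgf2 and Bmi1 alone, the PCGF genes of canonical PRC1, Pcgf2 held 11.7 to 13.8% in WT, 12.3 to 14.8% in KO and 15.3 to 22.8% in Tg. These WT and Tg ranges did not overlap either. Ring1 held 21.01 ± 1.64% of the Ring1 and Rnf2 level per kilobase in WT, 22.8 ± 4.11% in KO and 25.2 ± 2.94% in Tg, with overlapping ranges.

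**Figure D4:**
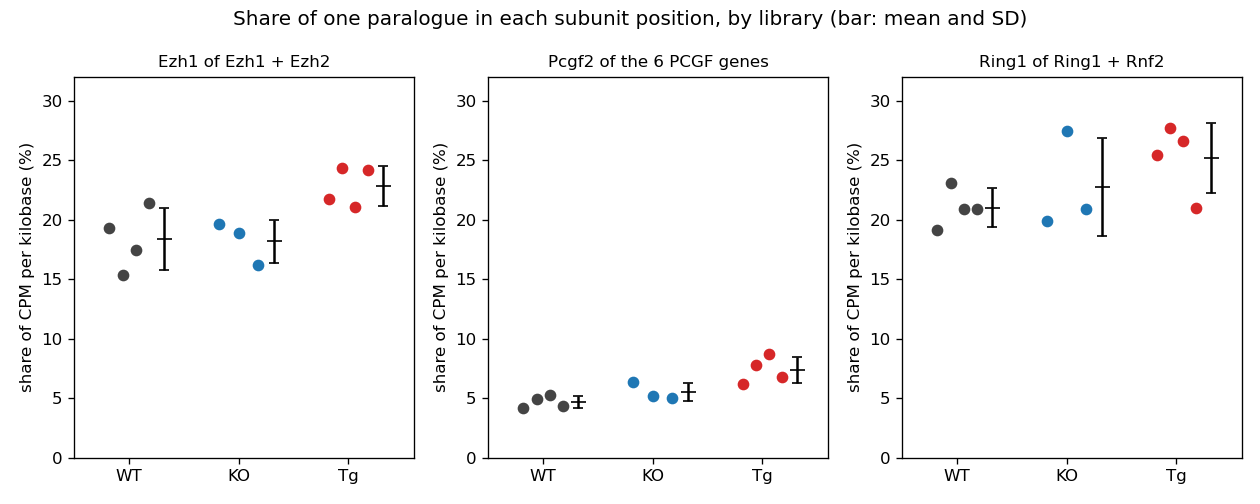
Share (vertical axis, percent of CPM per kilobase, from 0) that Ezh1, Pcgf2 and Ring1 take among the paralogues of their position, in each WT, KO and Tg library, with the group mean and SD. Pcgf2 lies above the WT libraries in all 4 Tg libraries, at 6.18 to 8.73%, while the WT and Tg libraries overlap for Ezh1 and Ring1.

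The wider Polycomb machinery was read from a list of 33 other genes, of which 31 were tested (Ezhip and Asxl3 did not pass the filter on low counts). In Tg against WT, where 4.92% of all genes tested were called (2.39% lower), 1 of the 31 was called and its direction was down. It was Kdm6a, an X-linked demethylase that removes the PRC2 mark and is known to escape X inactivation, with 133.1, 125.9, 125.2 and 152.1 CPM in WT, 115.0, 133.5 and 133.5 in KO and 105.6, 105.9, 85.0 and 89.9 in Tg. The log2 fold change of Kdm6a was -0.47 against WT (SE 0.10, edgeR adjusted p = 0.0232) and -0.40 against KO (SE 0.10, adjusted p = 0.0479), both called. Xist was near 0 in the 4 Tg libraries alone, so the Tg genotype and the Xist state cannot be told apart. This holds for Kdm6a and for every other gene in both Tg contrasts, Ezh2, Cbx2 and Pcgf2 among them. It holds without the mixed libraries too. The Kdm6a call against WT was lost without WT replicate 1 (edgeR adjusted p = 0.0524), and that against KO without any of 8 of the 11 libraries (up to 0.174, without KO replicate 2). With the Y-linked level as a covariate Kdm6a stood at -0.44 against WT (adjusted p = 0.038) and -0.32 against KO (0.223), and without the mixed libraries at -0.37 (0.53) and -0.47 (0.385).

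Of the 9 other PRC2 genes tested 0 were called in Tg against WT in edgeR (1 at an unadjusted p under 0.05), the lowest p belonging to the accessory subunits Aebp2 (log2 fold change -0.14, SE 0.06) and Mtf2 (-0.15, SE 0.08). Of the 17 other PRC1 genes 0 were called (2 at an unadjusted p under 0.05). They were Phc1, a polyhomeotic subunit, at -0.25 (SE 0.08, adjusted p = 0.112), and Pcgf1, of variant PRC1, at -0.33 (SE 0.14, adjusted p = 0.206), both with groups that did not overlap. In this contrast 22.1% of all genes had an unadjusted p under 0.05 and 9.85% had groups without overlap. In KO against WT 0 of the 31 were called by edgeR, 0 had an unadjusted p under 0.05, and DESeq2 and limma-voom called 0. Of all genes tested, edgeR called 0.0233% there and 7.08% had such a p. The median log2 fold change of the 31 was -0.01 in KO and -0.05 in Tg.

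Of 10 listed genes known as Polycomb targets, most of them factors of other tissues, 2 passed the filter on low counts. Cdkn2a, the cell cycle inhibitor locus that BMI1 is known to repress, had 9 counts over the 11 libraries (5 of them in WT replicate 2), and Cdkn2b had 5. In a library 3 counts, the limit that a count of 0 allows, came to 0.0657 to 0.143 CPM, a limit for counting error only. The B-lineage factors Ebf1 and Pax5, the 2 that were tested, stood at -2.88 (SE 1.03, adjusted p = 0.131) and -2.85 (SE 1.06, adjusted p = 0.144) in Tg against WT and did not pass. Their levels moved with the B cell markers: Ebf1 ran from 6.06 to 183.2 CPM in WT, highest in WT replicate 2, which also held the highest sum of B cell markers. The part of B cells in these values was not tested.

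Cell cycle genes were read beside the members. In Tg against WT 5 of 21 G2 and M phase genes fell (Top2a, Kif11, Nusap1, Dlgap5 and Tpx2), where 2.39% of all genes tested were called lower, and all 21 had estimates below 0 (median -0.22 on the log2 scale). Of the 5, Dlgap5, a spindle protein, had the largest change at -0.53 (SE 0.08), followed by Nusap1, which bundles microtubules, at -0.46 (SE 0.07). Of 18 S phase genes 3 fell, the replication clamp Pcna (-0.28, SE 0.07), the checkpoint mediator Clspn (-0.35, SE 0.06) and the histone mRNA binder Slbp (-0.34, SE 0.06), and the other 15 did not pass. Of the 18 estimates 7 were above 0, those of 5 of the 6 Mcm helicase genes among them (Mcm5 0.16, SE 0.12). In KO against WT 0 of the 21 and 0 of the 18 passed in edgeR (0 at an unadjusted p under 0.05). Of all genes tested, 0.0233% were called in that contrast and 7.08% had such a p. The KO estimates were above 0 for 17 of the 21 and 16 of the 18. Against KO, a comparison that shares the Tg libraries, 5 of the 21 and 3 of the 18 fell, where 3.06% of all genes tested were called lower. All 21 and all 18 estimates were below 0 there. Of 11 fits with 1 library left out, 9 lost the call against KO for Pcna, 6 for Tpx2 and 5 for Top2a. The call was lost in 4 for Kif11, 4 for Slbp and 1 for Clspn, and in 0 for Nusap1 and Dlgap5. In Tg against WT the call of Pcna was lost without any 1 of the 11 libraries and that of Tpx2 without any of 10. That of Top2a was lost there without WT replicate 2, Tg replicate 1 or Tg replicate 2. Without the mixed libraries all 8 lost their call, with estimates of -0.58 to -0.34.

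The mean of the G2 and M phase list ran from 6.84 to 7.06 on the log2 CPM scale in WT, from 6.92 to 7.05 in KO and from 6.58 to 6.82 in Tg. Relative to that mean, Ezh2 stood 0.56 to 0.92 higher in WT, 0.57 to 0.75 higher in KO and 0.26 to 0.74 higher in Tg on the log2 scale, with overlapping groups. Cbx2 stood at -1.88 to -1.57 relative to it in WT and at -2.39 to -1.69 in Tg, also with overlap. Pcgf2 stood at -4.07 to -3.97 in WT and -3.50 to -2.81 in Tg, without overlap. In KO Cbx2 stood at -2.02 to -1.56 and Pcgf2 at -4.01 to -3.48, each overlapping with WT and with Tg. Relative to the mean of the S phase list, Ezh2 stood at 0.05 to 0.58 in WT, 0.16 to 0.20 in KO and -0.31 to 0.06 in Tg, so that Tg overlapped with WT and not with KO. On that scale Cbx2 stood at -2.39 to -1.92 in WT and -3.02 to -2.37 in Tg, with overlap. Pcgf2 stood at -4.52 to -4.32 in WT and -4.14 to -3.49 in Tg, without overlap. The KO libraries held Cbx2 at -2.52 to -2.11 and Pcgf2 at -4.46 to -4.03, again overlapping with WT and with Tg. Within Tg the order was another: replicate 3 had the lowest G2 and M phase mean (6.58) and the highest levels of Ezh2, Cbx2 and Pcgf2 of the 4. The same library had the lowest sum of granulocyte-monocyte progenitor markers in Tg, 4720 CPM, where replicate 1 had the highest, 23280 CPM, and the lowest Ezh2, Cbx2 and Pcgf2. The part of cell cycle phase or of progenitor makeup in the members' differences was not tested.

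**Figure D5:**
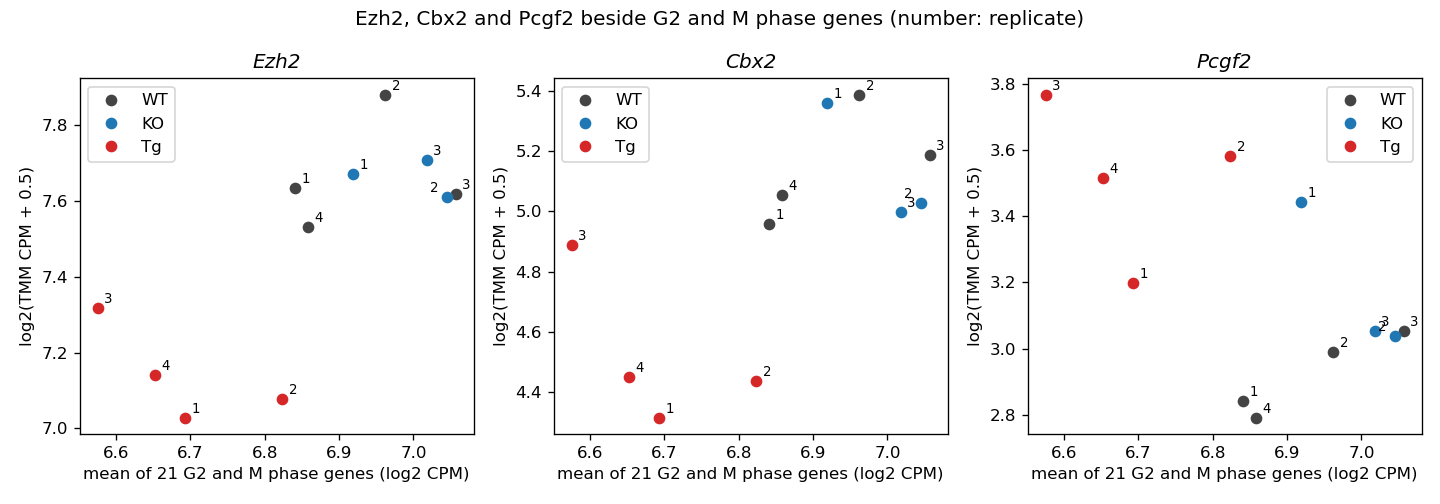
Level of Ezh2, Cbx2 and Pcgf2 (vertical axes, log2 of TMM-scaled CPM + 0.5) against the mean of 21 G2 and M phase genes (horizontal axes, log2 CPM) in the 11 libraries, numbered by replicate. The 4 Tg libraries lie left of all others, at 6.58 to 6.82, and among them replicate 3 is lowest on the horizontal and highest on the vertical axes.

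The genes with the pattern most like each called member were ranked by Pearson's r of log2 CPM over the 11 libraries, among the 10893 genes that averaged 5 CPM or more, leaving out predicted models. For Ezh2 they were Zer1 (r = 0.985), Mex3b (0.971), Bin1 (0.969), Slbp (0.966) and Foxn3 (0.959). For Cbx2 they were Ccnf (0.983), Bin1 (0.975), Map3k1 (0.972), Wdfy4 (0.969) and Mex3b (0.968), so that Bin1 and Mex3b stood in both sets. For Pcgf2 the values were lower, with Zfp707 (0.963), Rnpepl1 (0.893), Agrn (0.883), Mtfr1l (0.873) and Nnt (0.856). The libraries share 3 genotype groups, so these values mix differences between groups with differences within them. After the group means were taken off, r was 0.996 for Zer1 with Ezh2, 0.963 for Ccnf with Cbx2 and 0.906 for Zfp707 with Pcgf2. Over the 5 genes of each set it ran from 0.766 (Slbp) to 0.996 for Ezh2, from 0.892 (Mex3b) to 0.963 for Cbx2 and from 0.581 (Mtfr1l) to 0.94 (Rnpepl1) for Pcgf2. Both kinds of r come from the same libraries in which the genes were picked as highest, so neither is an independent check.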

How the data were processed

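Whole-number read counts for each gene symbol, 1 column per library, were deposited. Per the submitters' processing notes, the tools were FastQC, Trimmomatic, STAR and HTSeq, on mm10. Versions, annotation, strand setting and filters were not given in the sources used here. Groups came from the sample titles.

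One edgeR 4.0.16 model (R 4.3.3) held all 11 libraries: TMM factors on library totals, filterByExpr on the group, no covariate, quasi-likelihood tests, and Benjamini-Hochberg adjustment over the 17183 genes tested, called at 0.05. The common coefficient of variation was 27.2%. Each SE is the fold change over the root of its F statistic, and 95% intervals use the test's degrees of freedom. Nothing in the labels names litters or cultures, so p-values measure the spread between these libraries. They measure the spread between mice only if each library holds 1 mouse, as labelled. Gene models and exon lengths are from GENCODE M21 (GRCm38), promoters from RefSeq. Alternatives were DESeq2 1.42.0, limma-voom (limma 3.58.1), other scaling factors and filters (2 CPM in 3 libraries), fits of the compared groups, the replicate number as a block, the Y-linked level as a covariate, and libraries left out. The fit was tested on counts simulated from the means and dispersions of these data. Those counts held no mixed libraries and no built-in Xist difference between groups, so that test does not bear on either. Named genes were the 10 members, and of each list every called gene or otherwise the 2 with the lowest p, with the 5 genes most alike each called member. Members, lists, motifs and tests were chosen with earlier results of these data known. The share of Cbx2 among CBX genes is not reported here. Figures used matplotlib 3.10.9.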

Additional observations from a re-analysis of the deposited data

Results flagged for a closer look

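One value stood far from its group. Bmi1 in Tg replicate 4 was at 67.96 CPM, while the other Tg libraries held 48.6 to 51.4 CPM, a gap of 0.856 of the group's whole range. Of 20 groups of 4 libraries examined (10 members in WT and in Tg) 1 stood out this way, and chance gives about 1 in 20. Groups of 3 were not examined. The log2 fold change of Bmi1 in Tg against WT, -0.07, includes this library.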

How the results depend on the processing

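The fall of Ezh2 in Tg against WT kept its call in 9 of 10 other settings and without any 1 of the 11 libraries (log2 fold change -0.60 to -0.45). Those of Cbx2 and Pcgf2 kept it in 7 and 3 of 10, with their direction unchanged in every setting run. Fits without the 5 mixed libraries had 1 WT and 1 KO library, each assumed to vary like Tg.

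Called members in Tg against WT (3) became 2 with limma-voom, upper quartile factors, no filter on low counts or the Y-linked covariate, 1 with only the groups compared, 1 with the replicate block, 0 without the mixed libraries and 1 to 3 without 1 library. In Tg against KO (2) there was 1 with upper quartile factors, 1 with the 2 CPM filter, 1 with only the groups compared, 1 with the Y-linked covariate, 0 with the replicate block, 0 without the mixed libraries and 0 to 2 without 1 library. In KO against WT the count was 0 in every setting run. Other Polycomb genes called in Tg against WT (1) became 0 with the replicate block or without the mixed libraries and 0 to 1 without 1 library. Against KO (1) there were 2 with DESeq2, upper quartile factors or the 2 CPM filter, 0 with limma-voom, only the groups compared, the replicate block, the Y-linked covariate or without the mixed libraries, and 0 to 2 without 1 library.

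All genes called in KO against WT (4) became 99 with DESeq2, 1 with limma-voom, only the groups compared, the replicate block or the Y-linked covariate, 0 without the mixed libraries (868 at an unadjusted p under 0.05) and 1 to 4 without 1 library. In Tg against WT (846) there were 1912 with DESeq2, 358 with only the groups compared, 221 with the replicate block, 32 without the mixed libraries and 211 to 1076 without 1 library. Against KO (978) there were 1922 with DESeq2, 303 with the replicate block, 356 with the Y-linked covariate, 84 without the mixed libraries and 287 to 1096 without 1 library. The causes were not tested, beyond the smaller number of libraries in some fits.

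The r of deviations from group means was -0.348 to 0.14 over 10 pairs of same-numbered libraries and -0.506 to 0.424 over 30 other pairs. Deviations within a group cancel out, so these values cannot decide whether the numbers pair the libraries. With the replicate block, Ezh2 in Tg against WT stayed at -0.53 (adjusted p = 0.0457) and against KO was -0.50 (0.0609), Cbx2 was -0.63 (0.0942) and -0.60 (0.140), and Pcgf2 against WT 0.64 (0.127).

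Sign changes were found for differences that were not called in those settings. In KO against WT, values without 1 library ran from -0.013 to 0.060 for Eed, -0.087 to 0.052 for Ezh1, -0.054 to 0.068 for Ezh2, -0.14 to 0.070 for Cbx2 and -0.031 to 0.13 for Rnf2. Eed was -0.0098 with upper quartile factors, and Ezh1 was 0.030 with the replicate block. With the Y-linked covariate Ezh1 was 0.043, Ezh2 0.020 and Cbx2 0.034. Without the mixed libraries Ezh2 was 0.096, Suz12 0.0045, Cbx7 0.15 and Kdm6a 0.10. In Tg against WT, Ezh1 was 0.013 and Cbx7 0.27 without the mixed libraries. In Tg against KO, Cbx7 was -0.27 with the Y-linked covariate, Ezh1 was 0.053 without the mixed libraries, and Ring1 ran from -0.022 to 0.15 without 1 library.

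With the longest single transcript as length, Ezh2 took place 1 and Suz12 place 2 in the order of levels in all 3 groups, and the Ezh1 share was 14.3% in WT, 14.1% in KO and 17.9% in Tg.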
